A study of Arabidopsis thaliana with 27 samples.

Results

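The micropylar and chalazal endosperm (MCE) of dormant (D) Arabidopsis seeds was compared between 24 and 3 hours after sowing (HAS), over 3 arrays at 24 HAS and 3 arrays at 3 HAS, which are 6 of the 27 arrays analysed here. The arrays were chosen by their labels alone, and all 21313 genes of the deposited table were tested. The seeds were of the highly dormant accession CVI (Cape Verde Islands), unmutated, from plants grown in 3 replicates on rockwool with a standard nutrient solution, and were imbibed in water for 24 or 3 hours before dissection. RNA of dissected tissue was hybridised to ATH1 arrays (Affymetrix), so a value is an average over pooled endosperms, and fewer cells of a type and less RNA per cell cannot be told apart. The other arrays, which were whole D dry seeds, D MCE at 7 and 12 HAS, and the radicle and hypocotyl (RAD) of the same kind of seeds at 3, 7, 12, and 24 HAS with 3 arrays each, were used for the common error estimate and for the course and the comparison with the RAD below.

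In a mature Arabidopsis seed the endosperm is a thin living layer around the embryo. The micropylar part lies over the radicle tip, where its cell walls have to give way for the radicle to emerge, and the chalazal part lies at the opposite pole. The layer is also known as a source of abscisic acid (ABA), the hormone that holds germination back, while gibberellins promote it. The D seeds do not germinate, and their endosperm stays intact, so the changes below are those of a hydrated tissue around a resting embryo.

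The labelled tissue was checked against marker genes. EPR1, an extensin-like gene of the endosperm, had log2 values of 13.84, 13.78 and 13.72 at 24 HAS and 13.67, 13.74 and 13.70 at 3 HAS, and the RAD means were 6.4 at 24 HAS and 7.3 at 3 HAS. The summed level of the 7 measured endosperm markers lay between 13.79 and 13.95 (log2) at 24 HAS and between 13.72 and 13.79 at 3 HAS in the MCE, and between 9.69 and 9.87 at 24 HAS and 9.70 and 9.80 at 3 HAS in the RAD. EPR1 made up nearly all of this sum in the MCE. Of the other members GASA14 and ICE1 had means of 5.39 and 8.22 in the MCE at 24 HAS, against 8.0 and 8.5 in the RAD, and NAC25 was near the floor in both. For the 21 measured embryo and radicle markers the range was 10.56 to 10.92 at 24 HAS and 10.28 to 10.55 at 3 HAS in the MCE, against 10.59 to 10.64 and 10.24 to 10.33 in the RAD, so this sum did not separate the compartments. The part of embryo tissue in the MCE results was not tested. The root genes WER, PLT2, SMB, and GL2 had means near 3 in the MCE at both times, which is about the lowest value in the table, while SCR, ATML1, and PDF2 were above 5 there. In the RAD itself only 7 of the 21 markers exceeded 5 at 24 HAS and 5 at 3 HAS. GL2 had RAD means of 5.25 at 24 HAS and 4.02 at 3 HAS, so low values in the MCE say little about embryo tissue. Of the 12 measured seed coat markers 1 exceeded 5, and their summed level was 7.22 to 7.38 at 24 HAS against 7.48 to 7.58 at 3 HAS. Replicate arrays of a group correlated at 0.988 to 0.995 over all genes, and arrays of different times at 0.953 to 0.957.

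A gene "rose" or "fell" when the adjusted p of limma's test (Benjamini-Hochberg over all 21313 genes) was below 0.05, and a gene changed 3-fold when, in addition, the group means differed at least 3-fold after means below 4 (log2) were raised to 4. Every fold below is this ratio of means with the floor of 4, every ± on a log2 change is limma's standard error, and all levels are log2 values, which compare 1 gene between samples and not different genes. At 24 HAS 4007 genes had risen (18.8%) and 3579 had fallen (16.8%), in all 35.6% of the table. The counts of list members given below are to be read beside these 2 shares. The 3-fold rule called 701 genes (3.29%), of which 477 were higher (2.24%) and 224 lower (1.05%) at 24 HAS. In all 701 the 3 arrays at 24 HAS lay entirely above or below the 3 arrays at 3 HAS, as they did in 7163 of the 7586 genes past the test. The array medians were 4.89, 4.9 and 4.85 at 24 HAS against 4.68, 4.68 and 4.65 at 3 HAS, and the balance of higher and lower genes moves with this scaling. Quantile normalisation applied again gave 3663 risen and 3887 fallen genes (48.5% higher, against 52.8% as deposited) and 426 higher and 257 lower 3-fold genes. Centring each array on its median gave 2922 risen and 8346 fallen genes (25.9% higher), and 330 higher and 327 lower 3-fold genes (50.2% higher, against 68.0%), with a median change over all genes of -0.26 in place of -0.05. Under all 3 scalings together 329 higher and all 224 lower 3-fold genes were called.

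Most of the large changes were under way early. Of the 477 genes higher by 3-fold, the median gene had 54.6% of its change at 7 HAS and 83.8% at 12 HAS, and of the 224 lower genes 61.2% and 87.5%. The dry seed was not dissected, so a difference between it and the MCE can be one of tissue as well as of time, and these cannot be told apart. In the dry seed 245 of the 477 genes had a mean below 5, the level the study took as expressed, and 369 ended at least 3-fold above the dry seed. Of the 224 lower genes 58 stood at least 3-fold above the dry seed at 3 HAS, 113 ended at least 3-fold below the dry seed, and 7 ended at least 3-fold above it. The thresholds cut a continuous range, since the last higher gene counted had a fold of 3.0011 and the next 2.9998, and the last lower gene 3.0024 and the next 2.9995.

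**Figure D1:**
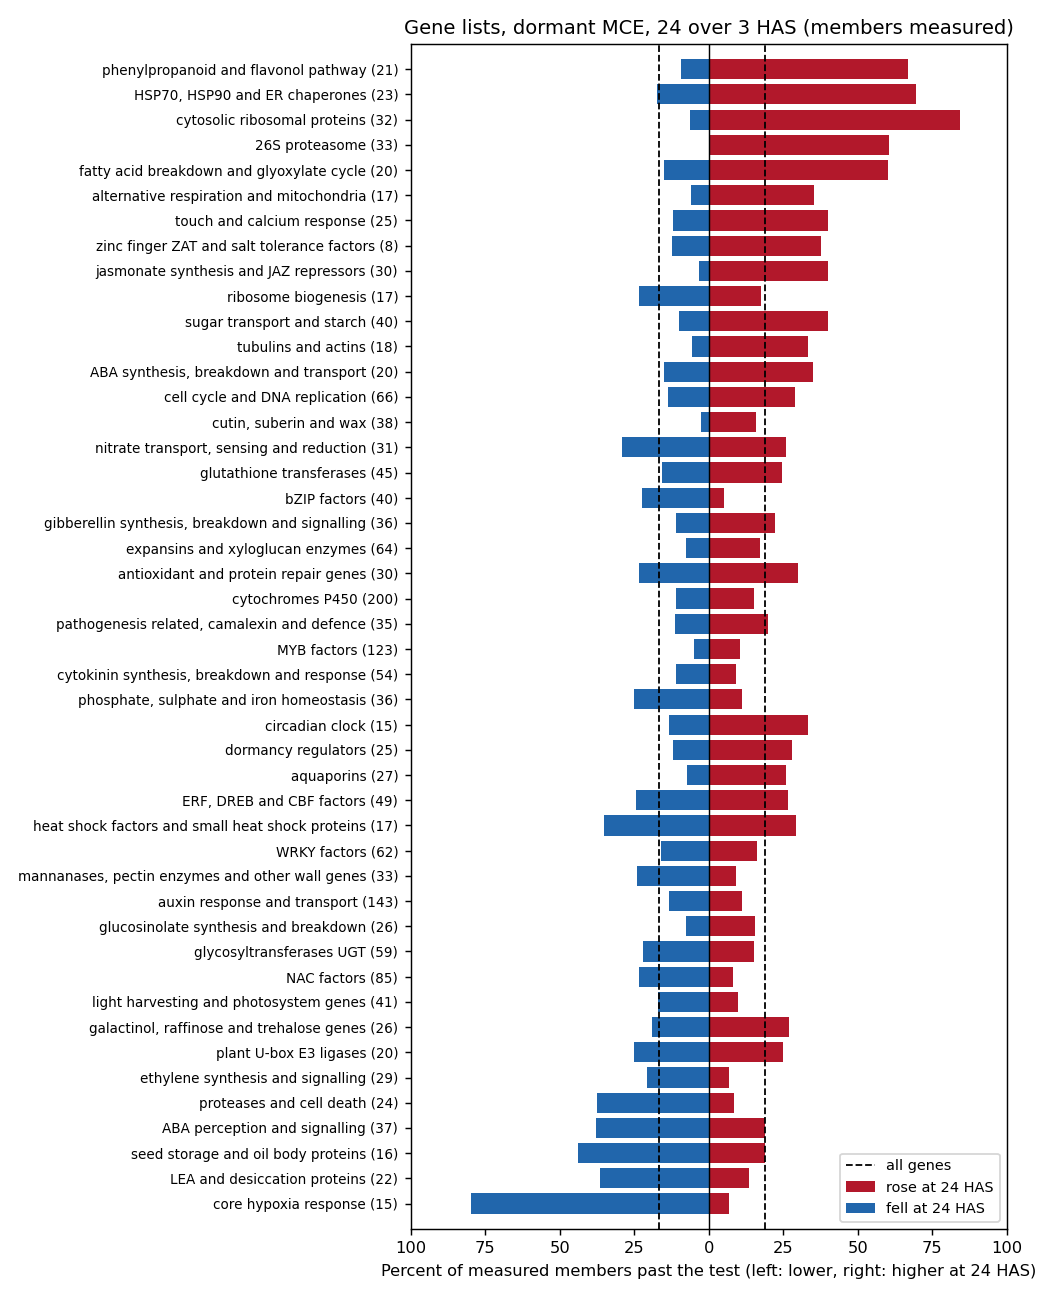
Percentage of the measured members of each of 46 gene lists that were higher (red, right) or lower (blue, left) at 24 than at 3 HAS in the D MCE, past the adjusted p of 0.05, ordered by the median change. Dashed lines mark the shares over all genes, 18.8% higher and 16.8% lower. The hypoxia list reaches furthest to the left, with 12 of 15 members, and the cytosolic ribosomal proteins furthest to the right, with 27 of 32.

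The flavonol pathway made up much of the top of the higher genes. Plants build flavonols from phenylalanine, by way of the general phenylpropanoid enzymes and then the flavonoid enzymes, and in seeds flavonoids are best known as pigments and protectants of the testa and the layers beneath it. Of 21 measured genes of this pathway 14 rose, 13 of them 3-fold, and 2 fell, with a median log2 change of 2.27 against -0.05 over all genes. FLS1 (AT5G08640), flavonol synthase, had values of 10.20, 10.91 and 10.78 at 24 HAS, against 4.21, 4.11 and 4.20 at 3 HAS. It was thus near the bottom of the scale in every array at 3 HAS and rose 87.9-fold (log2 change 6.46 ± 0.28, adjusted p = 3e-15). TT4 (AT5G13930), chalcone synthase, which makes the flavonoid skeleton, had 12.81, 13.34 and 13.25 at 24 HAS, against 7.06, 6.66 and 6.95 at 3 HAS, and rose 75.8-fold (log2 change 6.24 ± 0.25, adjusted p = 1.1e-15).

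The general steps before them moved with different isoforms in different directions. PAL1 (AT2G37040), phenylalanine ammonia-lyase, the entry enzyme, had 9.79, 10.41 and 9.93 at 24 HAS, against 4.21, 4.26 and 4.18 at 3 HAS (56.8-fold, adjusted p = 7.8e-17), and PAL2 (AT3G53260) had 9.65, 10.53 and 10.18 against 5.42, 5.13 and 5.08 (30.1-fold, adjusted p = 3.8e-15). For both, the arrays of the 2 times were more than 4 log2 units apart. PAL4 fell 2.19-fold (adjusted p = 1.2e-07), with means of 7.82 at 24 HAS and 8.95 at 3 HAS, and PAL3 stayed near the lowest values of the table (means 3.06 at 24 HAS and 3.12 at 3 HAS, adjusted p = 0.79). C4H, cinnamate 4-hydroxylase, rose 4.83-fold, and of the 4-coumarate:CoA ligases 4CL3, the form assigned to flavonoid synthesis, rose 6.39-fold and 4CL1 3.45-fold, while 4CL2 was between 3.05 and 3.25 on all 6 arrays (adjusted p = 0.81).

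Beyond chalcone synthase, the enzymes of the path to flavonols rose, while genes of the branch to coloured products were near the bottom of the scale. CHIL (AT5G05270), the chalcone isomerase-like partner of chalcone synthase, had 9.16, 10.05 and 9.65 at 24 HAS, against 3.62, 3.72 and 3.58 at 3 HAS (49.2-fold above the floor, adjusted p = 5.7e-14). TT5, chalcone isomerase, rose 27.9-fold, F3H, flavanone 3-hydroxylase, 6.05-fold, and TT7, the hydroxylase that turns kaempferol precursors into quercetin precursors, 17.3-fold. UGT78D1, which adds rhamnose to flavonols, rose 3.23-fold. UGT78D2, which adds glucose, had 9.25, 9.95 and 9.61 at 24 HAS, against 9.23, 8.98 and 8.71 at 3 HAS (adjusted p = 0.024). The groups were barely apart, and the call was lost under centring (adjusted p = 0.10), without 24 HAS replicate 2 (0.15) or 3 (0.053), and without 3 HAS replicate 2 (0.053) or 3 (0.12). DFR, the enzyme that leads to anthocyanins and tannins, had means of 3.19 at 24 HAS and 3.42 at 3 HAS (adjusted p = 0.29), and the seed coat tannin genes BAN, TT2, and TT8 were likewise between 2.78 and 4.04 on all 6 arrays.

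Of the regulators 1 rose. MYB12, an activator of flavonol genes, had 8.75, 9.32 and 8.78 at 24 HAS, against 5.82, 5.69 and 5.66 at 3 HAS, and rose 9.36-fold (adjusted p = 1.2e-09). The related MYB111 stayed near 4 (means 3.93 and 4.13, adjusted p = 0.33), MYB11 was below 4 on all 6 arrays (means 3.34 and 3.77, adjusted p = 0.026, and 0.054 after quantile normalisation), and HY5, a light-signalling factor that acts on this pathway, had means of 7.26 and 7.44 (adjusted p = 0.63). FAH1, ferulate 5-hydroxylase of the neighbouring sinapate branch, rose 6.28-fold. Of the listed pathway genes 14 also changed more in the MCE than in the RAD, as described below.

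**Figure D2:**
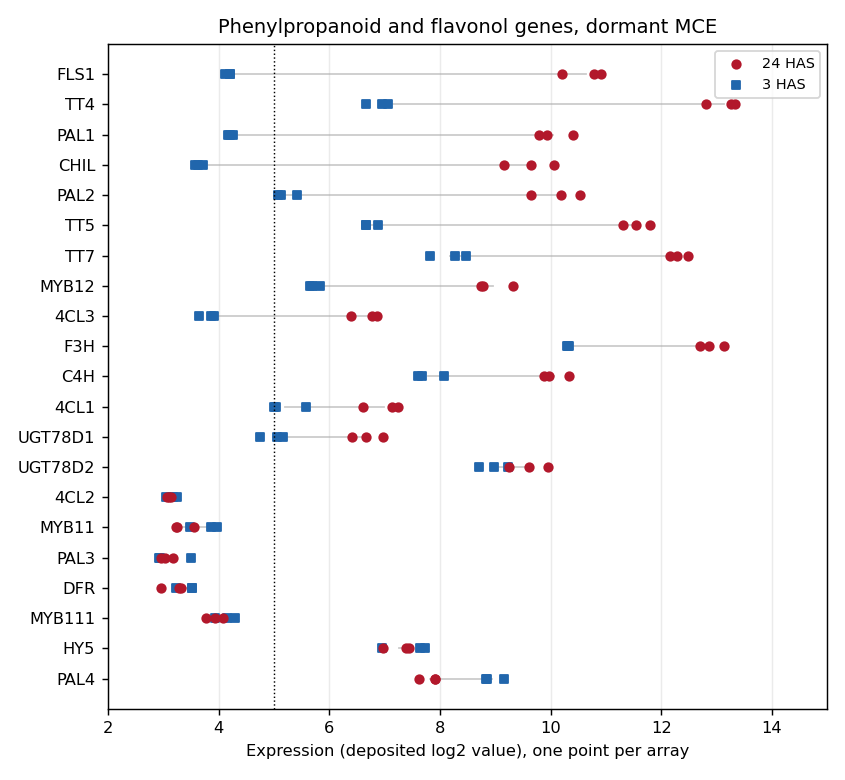
Log2 values of the 21 measured phenylpropanoid and flavonol genes on each D MCE array, with 24 HAS as red circles and 3 HAS as blue squares. The dotted line is the level of 5 taken as expressed, and the genes run by size of change from FLS1 (87.9-fold higher) at the top to PAL4 (2.19-fold lower) at the bottom.

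The opposite pattern was that of the core hypoxia genes, the set that plant cells switch on when oxygen is short. Of 15 measured members 12 fell and 1 rose, with 7 lower by 3-fold and a median log2 change of -1.44. HRA1 (AT3G10040), a trihelix repressor that dampens the hypoxia response, had 4.75, 4.58 and 4.70 at 24 HAS, against 9.20, 9.47 and 9.79 at 3 HAS, which was the largest decrease of all genes after the floor (28.1-fold, log2 change -4.81 ± 0.26, adjusted p = 1.6e-13). Its mean was 5.15 in the whole dry seed and 6.12 in the MCE at 7 HAS. LBD41, a transcription factor gene of the same response, had 8.79, 8.57 and 8.33 at 24 HAS, against 11.74, 11.86 and 11.89 at 3 HAS (9.63-fold, adjusted p = 2.1e-13), with a dry seed mean of 7.05.

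The oxygen sensors and the fermentation enzymes fell less. PCO2 and PCO1, the cysteine oxidases that mark group VII ERF proteins for breakdown in the presence of oxygen, fell 7.16-fold and 3.34-fold. HB1, a haemoglobin that scavenges nitric oxide, fell 4.49-fold. SRO5, also in this list, fell by 3.59 on the log2 scale. PDC1, pyruvate decarboxylase, fell 4.13-fold (means 7.67 at 24 HAS and 9.71 at 3 HAS), and ADH1, alcohol dehydrogenase, fell 2.40-fold and remained high, at 10.47, 10.70 and 10.65 against 11.70, 11.88 and 12.04. The ERF genes HRE1 and HRE2 fell 2.72-fold and 1.84-fold, and SUS1, a sucrose synthase, 2.19-fold. PDC2 had the smallest decrease, and its call was lost in 6 alternatives (adjusted p 0.065 to 0.20). The member that rose was RBOHD, an NADPH oxidase (1.78-fold). The ethylene receptor gene ETR2 (means 5.86 and 6.46, adjusted p = 0.12) and SUS4 (3.22 and 3.31, adjusted p = 0.70) did not pass. The RAD median of this list was -1.98. No member was called different from the RAD by the rule used below, which also asks for a 3-fold difference between the changes. LBD41 (1.39), ETR2 (1.38), RBOHD (0.88), and PDC2 (0.84) had a higher log2 change in the MCE than in the RAD. These differences had an adjusted p below 0.05 in limma's test but were below 3-fold.

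Several of the other 15 largest decreases belonged to nutrient assimilation, glycosylation and stress genes. NRT1.8, a nitrate transporter, had 8.24, 7.88 and 7.73 at 24 HAS, against 11.95, 12.202 and 12.104 at 3 HAS (17.57-fold, adjusted p = 6.8e-15). APR1, which reduces activated sulphate, had 6.83, 7.39 and 6.90 against 10.89, 10.71 and 10.55 (12.8-fold, adjusted p = 2.7e-12), and LSU2, a gene of low-sulphur plants, fell 10.7-fold. Both had whole dry seed means below 6. UGT76B1, a glycosyltransferase of immune signalling compounds, fell 20.2-fold, UGT74F2, a salicylic acid glucosyltransferase, 10.9-fold, and DIN2, a beta-glucosidase of dark-starved leaves, 10.8-fold. SIS fell 17.8-fold. The loci AT4G10270 (16.7-fold), AT1G33055 (15.3-fold), AT5G66985 (11.4-fold), and AT4G35985 (11.0-fold) completed the group.

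**Figure D3:**
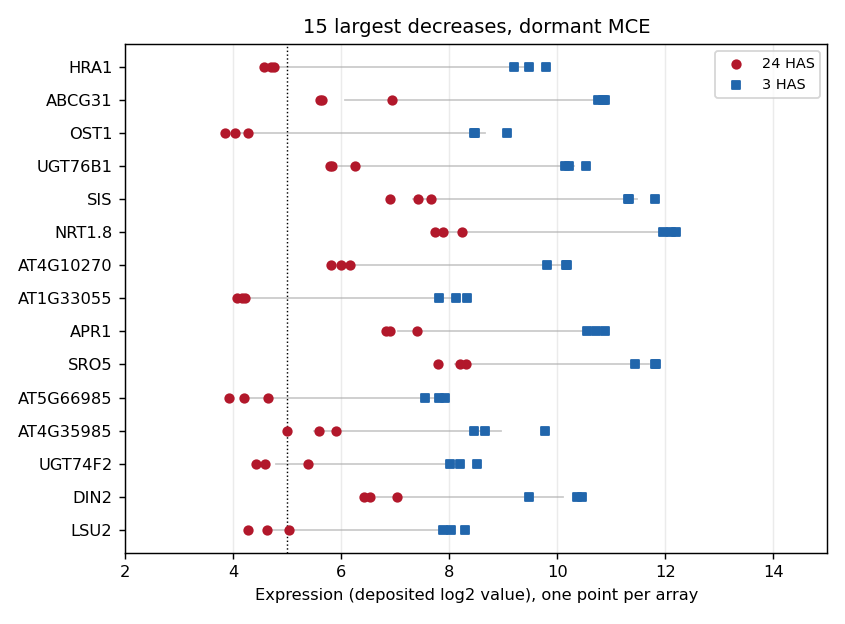
Log2 values on each D MCE array of the 15 genes with the largest decrease after the floor of 4, with 24 HAS as red circles, 3 HAS as blue squares and the expressed level of 5 as a dotted line. HRA1 (28.1-fold lower) is at the top and LSU2 (10.7-fold lower) at the bottom, and in no gene do the 2 groups overlap.

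Genes of ABA metabolism and transport moved both ways. ABA is made by way of the epoxycarotenoid dioxygenases (NCED), broken down by the CYP707A hydroxylases, and carried between endosperm and embryo by ABC transporters. Of 20 measured genes 7 rose and 3 fell (6 and 7 under centring), with 2 higher and 1 lower by 3-fold. NCED2 had 7.08, 8.29 and 7.95 at 24 HAS, against 5.30, 5.38 and 5.28 at 3 HAS, and rose 5.48-fold (log2 change 2.46 ± 0.20, adjusted p = 4.7e-10). NCED5 rose 2.92-fold (means 8.62 and 7.07), while NCED9 (7.36 and 7.56) and the low NCED3 and NCED6 did not pass the test. ABA4 rose 2.59-fold, ABA1, zeaxanthin epoxidase, fell 1.28-fold, and ABA3 fell 1.86-fold.

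On the side of breakdown, CYP707A1 had 6.87, 7.64 and 7.49 at 24 HAS, against 4.48, 5.91 and 5.49 at 3 HAS (4.10-fold, adjusted p = 7.8e-06), and CYP707A3 rose 2.40-fold. CYP707A2, the form best known from early imbibition, was high at both times (means 9.47 and 9.77) and did not pass the test. Genes for synthesis and for breakdown had therefore both risen at 24 HAS. Of the transporters, ABCG31 (AT2G29940), which exports ABA from the endosperm, had 6.95, 5.61 and 5.64 at 24 HAS, against 10.76, 10.88 and 10.84 at 3 HAS (27.1-fold lower, adjusted p = 3.7e-11). ABCG25, an ABA exporter as well, rose 2.33-fold (9.27, 9.26 and 9.22 against 8.01, 8.16 and 7.92). The importer gene ABCG30 rose 1.46-fold from a level near the floor.

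In ABA perception and signalling 14 of 37 measured genes fell and 7 rose, with a median of -0.21. OST1 (AT4G33950), a protein kinase of the SnRK2 family that is best known from guard cells, had 4.27, 4.04 and 3.85 at 24 HAS, against 8.47, 8.46 and 9.07 at 3 HAS, and fell 24.5-fold (log2 change -4.62 ± 0.25, adjusted p = 2.7e-13). Its mean in the whole dry seed was 3.76. SNRK2.3, a kinase of the same family with a major role in seeds, fell 2.47-fold (means 7.73 and 9.04). The receptor genes moved both ways, with PYL7 and PYL9 lower (2.90-fold and 2.07-fold) and PYR1 and PYL4 higher (1.73-fold and 1.79-fold). The phosphatase genes HAI3, ABI2, and AHG1, which restrain the kinases, fell 2.27-fold, 1.85-fold and 1.43-fold. Among the transcription factors ABI3 (means 8.94 and 8.68) and ABI4 (4.77 and 4.84) did not pass, ABF4 rose 2.22-fold, and ABI5 had 10.25, 10.25 and 10.03 against 10.85, 10.57 and 10.58, a fall whose call was lost without 24 HAS replicate 3 (adjusted p = 0.11) or 3 HAS replicate 1 (adjusted p = 0.13).

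Of 36 measured gibberellin genes 8 rose and 4 fell (7 and 11 under centring), with 4 higher and 1 lower by 3-fold. GA2OX6, which inactivates gibberellin, had 7.06, 6.91 and 7.57 at 24 HAS, against 4.13, 5.44 and 5.20 at 3 HAS, and rose 4.77-fold (adjusted p = 1.2e-07). Among the DELLA genes, repressors of gibberellin responses, RGL2, the main seed form, had 8.92, 8.02 and 8.19 against 6.02, 6.29 and 6.57 (4.25-fold, adjusted p = 1.4e-07). GAI rose 3.44-fold and RGA1 1.91-fold, while RGL3 (adjusted p = 0.17) and RGL1 (adjusted p = 0.056) did not pass the test. The receptors GID1A, GID1B, and GID1C and the synthesis gene GA3OX1 did not pass either. SCL3, a positive regulator that opposes DELLA proteins, fell by 1.72 on the log2 scale, and the gibberellin-responsive GASA1 rose 4.04-fold, with 1 lower array (5.20, 6.43 and 7.201 against 4.15, 4.42 and 4.22).

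Of 25 measured dormancy regulators 7 rose and 3 fell (7 and 9 under centring). DOG1, the major quantitative determinant of seed dormancy, had 3.83, 4.005 and 4.34 at 24 HAS, against 6.48, 6.76 and 6.20 at 3 HAS, a fall of 5.36-fold (log2 change -2.42 ± 0.20, adjusted p = 3.8e-10). Its mean was 7.54 in the whole dry seed, and in the MCE 5.66 at 7 HAS and 4.96 at 12 HAS. MYB96, a factor that promotes ABA synthesis and dormancy, had 5.34, 6.49 and 6.69 against 4.18, 3.78 and 3.94 (4.51-fold higher, adjusted p = 1.8e-06). PIL5, a phytochrome-interacting repressor of germination, rose 3.26-fold, BME3, a GATA factor that promotes germination, 3.14-fold, and MFT, a seed regulator of ABA and gibberellin signals, 2.15-fold. TFIIS, a transcription elongation factor needed for dormancy, fell 2.88-fold. SOM and SPT, of which SOM acts downstream of PIL5, did not pass the test.

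**Figure D4:**
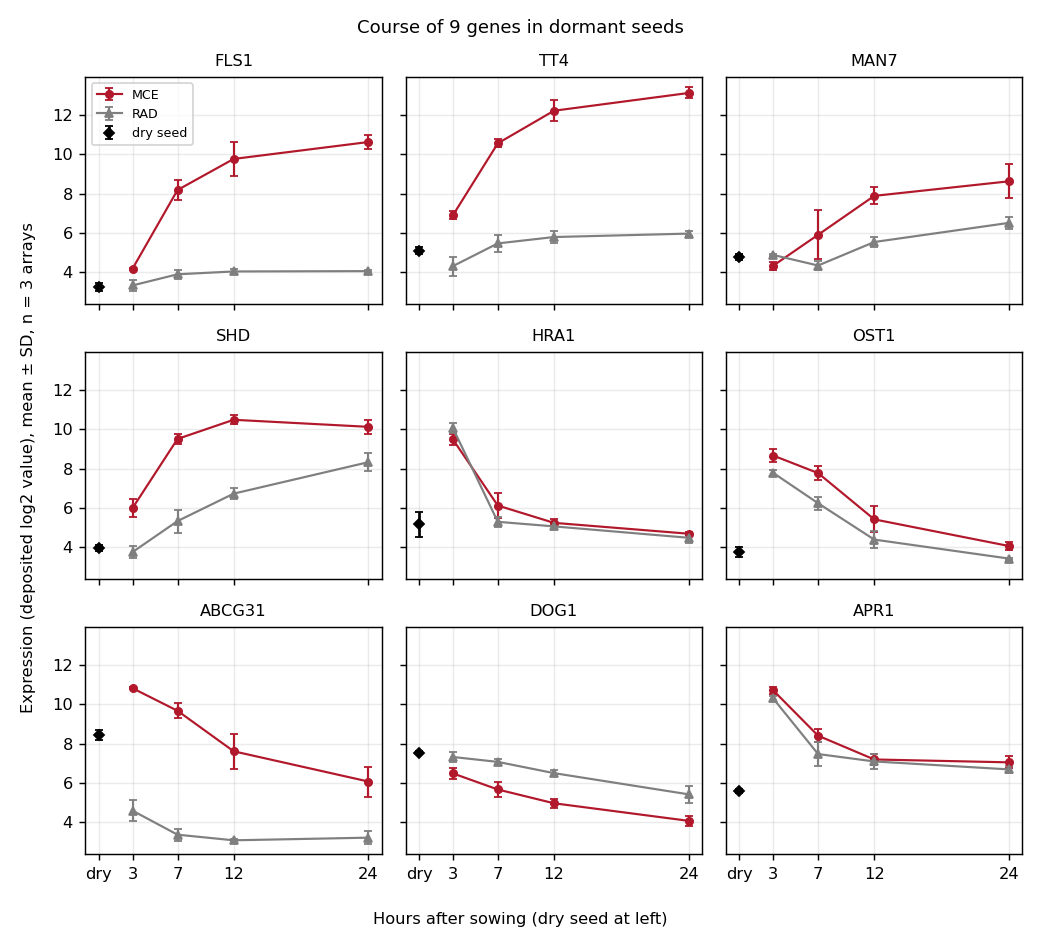
Mean log2 values with SD (n = 3 arrays) of 9 genes in the dry seed (black) and at 3, 7, 12, and 24 HAS in the D MCE (red) and D RAD (grey). FLS1, TT4, MAN7, and SHD climb in the MCE, HRA1 and APR1 decline from 3 HAS on in both compartments, ABCG31 keeps a lower mean in the RAD throughout, and DOG1 declines in both.

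Cell wall genes held some of the largest increases, although most of them were below 5. Of 64 measured expansins and xyloglucan enzymes 17 exceeded 5, 11 rose and 5 fell (11 and 21 under centring). XTH24 had 7.55, 9.33 and 9.65 at 24 HAS, against 3.86, 3.40 and 4.06 at 3 HAS (28.7-fold, adjusted p = 6.2e-08, and 44.9-fold without 24 HAS replicate 1). XTH19 had 8.34, 8.43 and 8.52 against 4.43, 3.84 and 3.79 (21.2-fold, adjusted p = 3.3e-15). XTH18 and XTH15 rose 4.99-fold and 3.31-fold, whereas XTH30 fell 7.56-fold (4.47, 5.47 and 5.10 against 7.85, 7.91 and 8.04). XTH proteins cut and rejoin the xyloglucan chains that tether cellulose. BGAL10, a beta-galactosidase that trims xyloglucan, had 9.15, 8.09 and 7.93 against 3.99, 3.77 and 3.73 (21.0-fold). XTR8, an endosperm xyloglucan gene of germinating seeds, was at the bottom of the scale (3.41, 2.97 and 2.85 against 3.11, 3.13 and 3.57, adjusted p = 0.34), and the endosperm expansin EXPA2 had 5.72, 4.49 and 4.23 against 4.39, 4.85 and 4.76 (adjusted p = 0.77).

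Of 33 measured mannan, pectin and other wall genes 3 rose and 8 fell. MAN7, an endo-mannanase of the micropylar endosperm, had 9.62, 8.27 and 7.995 at 24 HAS, against 4.19, 4.21 and 4.56 at 3 HAS, and rose 19.8-fold (adjusted p = 2.1e-09). Its relatives MAN6 and MAN5 fell 1.74-fold and 1.64-fold to means of 4.14 and 4.59. CSLA2, which synthesises glucomannan, fell 3.05-fold, and CESA3 and KOR1, which serve cellulose synthesis, rose 1.46-fold and 1.38-fold. Of 18 tubulins and actins 6 rose and 1 fell, led by TUA6 (8.79-fold), TUA2 (3.31-fold), and TUB4 (2.74-fold).

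Protein folding genes of the endoplasmic reticulum were mostly higher. Of 23 measured HSP70, HSP90 and endoplasmic reticulum chaperones 16 rose, 10 of them 3-fold, and 4 fell, with a median of 0.98. SHD, the HSP90 of the endoplasmic reticulum, had 10.47, 10.16 and 9.77 at 24 HAS, against 5.91, 6.47 and 5.58 at 3 HAS (log2 change 4.14 ± 0.26, adjusted p = 3.3e-12). The calreticulins CRT1 and CRT1B rose 8.78-fold and 7.18-fold, the disulphide isomerase PDIL1-1 7.07-fold, calnexin CNX1 5.24-fold, and the co-chaperone ERDJ3B 4.93-fold. The 4 members that fell were FES1A (4.01-fold) and HSP90.1 (2.04-fold), which act in the cytosol, and the endoplasmic reticulum genes ERDJ3A, a co-chaperone (log2 change -0.77 ± 0.16), and BZIP60, a stress factor (-0.74 ± 0.15). Of 17 heat shock factors and small heat shock proteins 5 rose and 6 fell, with HSFA1E 3.48-fold, HSFB2B 3.45-fold and HSFA2 2.996-fold lower, and HSFA4A 2.05-fold higher.

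The machinery of translation and protein turnover shifted by small steps. Of 32 cytosolic ribosomal protein genes 27 rose and 2 fell (24 and 2 under centring), with a median of 0.92 and a largest change of 3.28-fold, for RPL24A. Of 33 subunits of the 26S proteasome 20 rose and none fell (15 rose and 3 fell under centring), with PBD2 (2.39-fold), PAD2 (2.28-fold), and PBG1 (2.21-fold) at the top. Ribosome biogenesis genes did not follow, with 3 of 17 higher and 4 lower, and a median of 0.12 that became -0.085 under centring. FIB2, fibrillarin, rose 2.38-fold and SWA1, a nucleolar protein, fell 2.196-fold.

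Reserve and desiccation genes mostly changed by less than 3-fold, and more of them fell than rose. Of 22 LEA and desiccation proteins, which protect cells in the dry state, 8 fell (36.4%) and 3 rose (13.6%), with a median of -0.35. Of 16 storage and oil body genes 7 fell (43.8%) and 3 rose (18.8%), with a median of -0.27. Over all genes 16.8% fell and 18.8% rose. Under centring 15 fell and 1 rose of the first list, and 10 fell and 2 rose of the second. XERO2, a dehydrin, was the only member of either list that changed 3-fold (9.90, 9.35 and 10.25 at 24 HAS, against 12.26, 12.15 and 11.95 at 3 HAS, 4.88-fold lower). SESA4 and CRU2, storage albumin and cruciferin genes, fell 2.74-fold and 2.06-fold, while CRC, another cruciferin, rose 1.41-fold and the oleosin OLEO3 1.69-fold. EM1 and EM6, which are LEA genes under ABI5, did not pass the test.

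Fatty acid breakdown and the glyoxylate cycle, which turn seed oil into sugar, had 12 of 20 genes higher and 3 lower, with a median of 0.33. KAT5, a thiolase of beta-oxidation, had 9.16, 9.78 and 9.43 at 24 HAS, against 4.58, 4.37 and 4.57 at 3 HAS, and rose 30.9-fold (adjusted p = 6.8e-13). All other changes of the list were below 3-fold. LACS7 and MFP2 rose 2.61-fold and 2.22-fold, PMDH1 2.21-fold, and ICL, isocitrate lyase, was at 13.92, 13.87 and 13.82 against 13.85, 13.81 and 13.81 and did not pass the test. In sugar transport and starch 16 of 40 genes rose, 9 of them 3-fold, and 4 fell (16 and 9 under centring). The members that rose included both starch synthesis and starch breakdown genes, with DPE2 (6.66-fold), SBE2.1 (5.26-fold), SEX4 (5.20-fold), SS1 (4.98-fold), and DPE1 (4.31-fold), and the cell wall invertase CWINV1 rose 4.07-fold.

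Nitrate genes were divided, with 8 of 31 higher and 9 lower. NRT1.1, a nitrate transporter and sensor, had 9.52, 10.18 and 10.13 at 24 HAS, against 5.92, 6.21 and 6.33 at 3 HAS (13.8-fold higher, adjusted p = 1.1e-13), whereas NRT1.8, described above, and NRT2.7, the vacuolar seed nitrate transporter, fell (NRT2.7 8.01-fold). NIR1, nitrite reductase, fell 3.51-fold. In phosphate, sulphate and iron homeostasis 9 of 36 fell and 4 rose, and the falls were led by sulphate genes, with APR3 5.38-fold, SDI1 2.75-fold and APR2 2.36-fold lower beside APR1 and LSU2.

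Of 30 measured jasmonate genes 12 were higher and 1 lower (9 and 7 under centring). LOX4, a lipoxygenase, had 8.02, 8.91 and 9.12 at 24 HAS, against 6.001, 6.27 and 6.25 at 3 HAS (5.69-fold, adjusted p = 1.6e-08). OPCL1 rose 4.44-fold, LOX3 4.16-fold, AOC3 3.92-fold, and AOC4 3.51-fold, which all belong to jasmonate synthesis, and the transcription factor gene MYC2 rose 2.68-fold. LOX4, LOX3, and MYC2 had lower means at 12 than at 7 HAS, so their course was not a steady climb.

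Of 29 ethylene genes 2 rose (6.9%) and 6 fell (20.7%), and under centring 2 rose and 16 fell. RAP2.2, a group VII ERF, rose 4.45-fold (9.91, 9.73 and 9.60 against 7.57, 7.76 and 7.45), and EIL1 and EIN3, the central transcription factors, fell 2.85-fold and 1.66-fold. Of 143 auxin genes 16 rose and 19 fell (8 and 63 under centring). The amido synthetase genes DFL1 and PBS3, of which DFL1 conjugates auxin, rose 15.9-fold and 11.4-fold, IAA13, an auxin response repressor, fell 3.54-fold, and the auxin importer AUX1 rose 3.15-fold. Of 54 cytokinin genes 5 rose and 6 fell (5 and 19 under centring), and CKX5, a cytokinin oxidase, rose 7.14-fold.

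Transcription factor families were mostly below the expressed level, and their members moved both ways. Of 62 WRKY genes 10 rose and 10 fell, 16.1% each (9 and 29 under centring). WRKY53, a factor of senescence and defence, had 6.38, 7.92 and 8.43 at 24 HAS, against 3.90, 4.79 and 4.28 at 3 HAS (9.52-fold, log2 change 3.25, and 3.85 without 24 HAS replicate 1), and WRKY18 fell 5.10-fold. Of the measured MYB genes 13 rose (10.6%) and 6 fell (4.88%) (11 and 49 under centring), and MYB77 fell 5.20-fold. Of 49 ERF, DREB and CBF genes 13 rose and 12 fell (11 and 22 under centring), with ERF5 (7.27-fold) and DREB26 (6.56-fold) higher and RAP2.1 (4.37-fold) and RAP2.6 (3.93-fold) lower. Of 85 NAC genes 7 rose and 20 fell (5 and 46 under centring), and of 40 bZIP genes 2 rose and 9 fell (1 and 15 under centring), which is 23.5% and 22.5% lower beside 16.8% over all genes. NAC083 fell 6.08-fold, NAC053 rose 3.95-fold, and BZIP28, a sensor of endoplasmic reticulum stress, fell 2.18-fold. Among 8 measured ZAT zinc finger genes 3 rose and 1 fell (2 and 2 under centring), with AZF1 1.68-fold higher.

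Detoxification and protection genes were also divided. Of 59 glycosyltransferases (UGT) 13 fell and 9 rose, with 5 lower by 3-fold, among them UGT76E11 (7.62-fold), UGT75B1 (5.02-fold), and UGT74E2 (4.81-fold). Of 45 glutathione transferases 11 rose and 7 fell (8 and 18 under centring), with ERD9 7.51-fold higher and GSTU19 5.30-fold lower. Of 200 cytochromes P450 30 rose and 22 fell (22 and 79 under centring). Of 30 antioxidant and protein repair genes 9 rose and 7 fell (8 and 12 under centring). MDAR1, APX1, and CSD1, enzymes against reactive oxygen, rose 4.34-fold, 3.89-fold and 3.42-fold, and the catalase CAT3 had 9.91, 9.57 and 9.42 against 11.71, 11.60 and 11.62, a fall of 4.02-fold. Of 26 glucosinolate genes 4 rose and 2 fell (4 and 13 under centring), with NSP5, a nitrile specifier protein gene, 10.5-fold lower. Of 35 pathogenesis and defence genes 7 rose and 4 fell (7 and 9 under centring), with the defensin PDF2.3 4.29-fold and the transporter PEN3 3.27-fold higher.

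Of 20 plant U-box ubiquitin ligases 5 rose and 5 fell (4 and 9 under centring). PUB29 had 6.15, 8.06 and 8.31 at 24 HAS, against 3.27, 3.49 and 3.87 at 3 HAS (11.4-fold, log2 change 3.97, and 4.64 without 24 HAS replicate 1), and PUB22 and PUB23, negative regulators of immune and drought responses, rose 5.52-fold and 4.48-fold. Of 25 touch and calcium genes 10 rose and 3 fell, with SYP122 3.36-fold and MKK9 3.26-fold higher. XTH24, WRKY53, PUB29, ERF5, and GASA1 shared a lower value in 24 HAS replicate 1 than in the other arrays at 24 HAS, whereas MAN7, BGAL10, and TUA6 were highest there. Without that array 515 genes were higher and 221 lower by 3-fold.

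Of 66 cell cycle and replication genes 26 exceeded 5, and 19 rose and 9 fell (13 and 23 under centring). RNR1, a ribonucleotide reductase subunit, PCNA2, the sliding clamp of DNA polymerase, and ORC4, of the origin recognition complex, rose 4.67-fold, 4.05-fold and 3.49-fold. AT5G63370 fell 4.74-fold. Of 41 light harvesting and photosystem genes 4 rose and 7 fell, with NPQ4 5.52-fold higher and LHCB5 and PSAD-2 3.53-fold and 3.06-fold lower. Of 27 aquaporins 7 rose and 2 fell (4 and 11 under centring), and the boron channel NIP5;1 rose 4.65-fold. Of 15 clock genes 5 rose and 2 fell (4 and 4 under centring), with PRR3 3.21-fold higher. Of 38 cutin, suberin and wax genes 6 rose and 1 fell (6 and 13 under centring), with the exporter ABCG11 5.34-fold higher. Of 24 proteases and cell death genes 9 fell and 2 rose, with ATG8H, an autophagy gene, 4.14-fold lower. Of 26 galactinol, raffinose and trehalose genes 7 rose and 5 fell (6 and 13 under centring), with MIOX2 3.79-fold higher and TPPF and TPS8 3.29-fold and 3.16-fold lower. Of 17 genes of alternative respiration 6 rose and 1 fell, with NDA1 2.67-fold higher.

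Of the 15 largest increases 4 have not been described yet. SIAR1, an amino acid exporter of the UMAMIT family, had 8.88, 8.68 and 8.40 at 24 HAS, against 3.76, 3.47 and 3.42 at 3 HAS, and rose 25.1-fold above the floor (adjusted p = 1.7e-15). The loci AT5G57785 and AT5G62210 rose 28.5-fold and 24.0-fold, and AT1G66180 18.4-fold (27.8-fold without 24 HAS replicate 1).

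To see which changes differed from those in the embryo axis, the change in the MCE was tested against the change in the RAD over the same hours. RNA of the MCE was isolated by a hot borate method and RNA of the RAD with another kit, so compartment and isolation method cannot be told apart in a level, although each change was taken within 1 method. The changes differed by at least 3-fold for 296 genes (1.39%), with 173 above the RAD change (0.812%) and the others below it (0.577%). Of the 477 higher genes 444 also had a higher mean at 24 HAS in the RAD, 210 of them by 3-fold, and 112 were called different. Of the 224 lower genes 217 had the same direction in the RAD, 128 by 3-fold, and 18 were called different. The flavonol genes were at the top of the difference. FLS1 changed by 6.46 in the MCE, whereas its RAD means were 4.0 at 24 HAS and 3.3 at 3 HAS, and the difference with the floor was 6.41. For CHIL, PAL1, and PAL2 the differences were 5.62, 5.43 and 5.37, and for AT5G62210 4.93.

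Genes with a smaller change in the MCE included growth and membrane genes. XTH15 rose 3.31-fold in the MCE but had RAD means of 10.4 at 24 HAS and 4.9 at 3 HAS (difference -3.77). FAD3, a linoleate desaturase, and HTA8, a histone H2A gene, did not pass the test in the MCE (means 7.15 and 6.88, and 3.84 and 3.40), and their differences were -3.60 and -3.57. For AT5G01210 it was -3.62. The alpha-tubulin genes TUA2, TUA4, and TUA6, which rose in the MCE, had larger increases of the mean in the RAD, with differences of -3.09, -2.43 and -2.05. ABCG31 had the most negative difference, -4.18, since it was near the bottom of the scale in the RAD (means 3.2 and 4.6) and fell 27.1-fold in the MCE. HRA1, OST1, NRT1.8, and APR1 had lower means at 24 HAS in both compartments and were not called different.

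**Figure D5:**
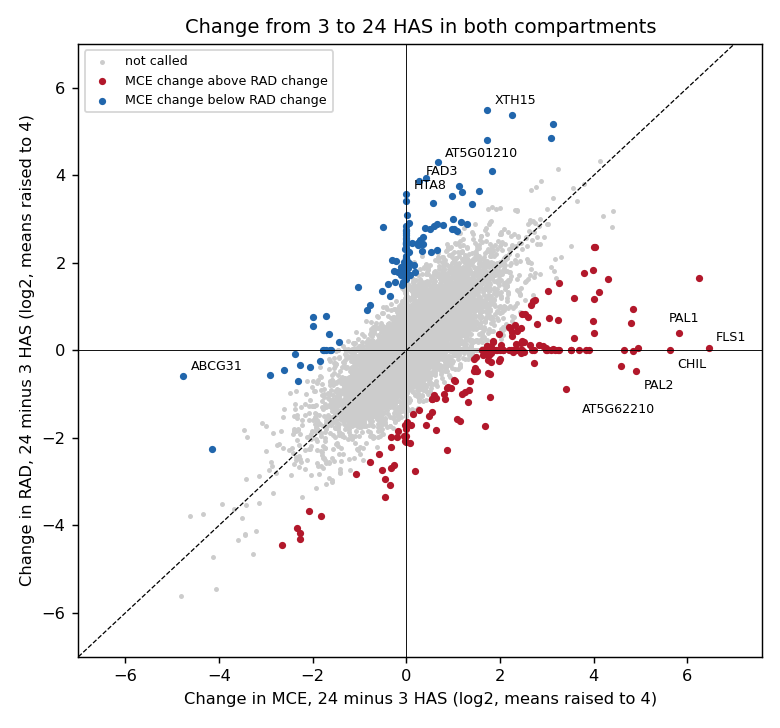
Change from 3 to 24 HAS in the D MCE (horizontal) against the D RAD (vertical), in log2 units after means below 4 were raised to 4, for all 21313 genes. Red points are the 173 genes whose MCE change was called above the RAD change and blue points those called below it, the dashed line marks equal change, and FLS1, CHIL, PAL1, and PAL2 lie far to the right near a RAD change of 0.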

How the data were processed

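Values were the log2 expression values deposited by the authors, who processed the chips by RMA (background correction, quantile normalisation, median polish) together with further chips, with a custom chip definition file (version 18.0.0) giving a single value per gene, and removed control probes. No value was rescaled in the main fit. The MCE columns at 3 HAS carry up to 7 decimals and those at 24 HAS up to 9, while the RAD columns at both times carry up to 9. Whether these columns were handled differently was not tested. Such a difference cannot be told apart from time in the MCE, nor from compartment in the comparison with the RAD. The MCE columns at 7 HAS, with 7 decimals, had medians of 4.83 to 4.87. Arrays carry no read depth, so precision is limited by 3 arrays per group. The labels do not say whether replicate RNA came from separate seed batches of the 3 plant replicates, so p-values measure the spread between these arrays, which may be partly technical. Gene symbols came from a RefSeq table of assembly TAIR10.1, which held 21205 of 21313 loci, 8991 with a symbol.

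One linear model was fitted per gene to all 27 arrays in 9 groups (limma 3.58.1, R 4.3.3, lmFit, contrasts.fit and eBayes, 18 residual and 7.25 prior degrees of freedom), with Benjamini-Hochberg adjustment over all genes. Calls needed an adjusted p below 0.05, and the 3-fold rule also a 3-fold difference of means raised to at least 4. The fit was run on simulated data with independent noise per gene and no shift of whole arrays. It called 87 of 100 genes changed by 1 log2 unit, 100 of 100 changed by 2, and 9 other genes. This cannot speak to the scaling between the times or to shared deviations of an array. Alternatives were other sample sets, a replicate block, quantile normalisation again, centring, floors, a 2-fold rule, the methods' t-test, only genes above 5, and each array left out.

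Named were the 15 largest increases and 15 largest decreases, up to 6 members past the test per list with members that carry defining steps, the genes the study names, the 5 largest differences from the RAD in each direction, and markers. The genes, lists and rules were chosen with earlier results of these data known. Sequences were not used here.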

Additional observations from a re-analysis of the deposited data

Results flagged for a closer look

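The genes below were singled out because their change from 3 to 24 HAS differed between the MCE and the RAD, by limma's test of the difference between the changes (adjusted p below 0.05 over all genes and at least 3-fold). They are the 57 such genes among those named here, 41 with a higher and 16 with a lower change in the MCE, and each value is the change in the MCE minus the change in the RAD in log2 units, with means raised to at least 4. RNA isolation differed between the compartments, so its part cannot be told apart.

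Phenylpropanoid, flavonol and sinapate genes gave 15 of the higher values. They were 6.41 for FLS1, 5.62 for CHIL, 5.43 for PAL1, 5.37 for PAL2, 4.58 for TT4, 4.18 for TT5, 2.78 for TT7, 2.68 for 4CL3, and 2.53 for the regulator MYB12. UGT78D2 had 2.44, with a lower mean at 24 HAS in the RAD (means 7.7 at 24 HAS and 9.5 at 3 HAS), 4CL1 2.32, C4H 2.31, F3H 1.84, UGT78D1 1.77, and the sinapate gene FAH1 1.62.

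In hormone genes the difference was 3.33 for DFL1 and 3.51 for PBS3, 2.71 for the cytokinin oxidase CKX5, 2.31 and 2.06 for the lipoxygenases LOX4 and LOX3, 2.3 for NCED2, 1.88 for GASA1, 1.84 for GA2OX6, and 1.73 for AT1G72430. For the wall genes XTH24, MAN7, and XTH18 it was 3.90, 2.67 and 2.32, and for the stress and defence genes PUB29, WRKY53, ERD9, and PUB22 it was 3.49, 3.25, 2.82 and 2.26. The thiolase KAT5 had 4.9, the exporter SIAR1 4.65, and the loci AT5G62210 and AT5G57785 4.93 and 4.85. The others above the RAD change were NIR1 (1.96), MIOX2 (1.92), SCR (1.92), MYB31 (1.67), NIP1;2 (1.67), and NPQ4 (1.64). The floor moved these sizes both ways where means lay below 4. Without it the difference was 1.47 for MIOX2, which is below 3-fold, 5.73 for FLS1, -3.39 for ABCG31, and 2.45 for LOX3. NIR1 and AT1G72430 fell in the MCE and had a larger decrease of the mean in the RAD.

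Below the RAD change were ABCG31 (-4.18), XTH15 (-3.77), AT5G01210 (-3.62), FAD3 (-3.60), and HTA8 (-3.57), then TUA2 (-3.09), GSTU22 (-2.49), TUA4 (-2.43), XTH30 (-2.35), NAC083 (-2.15), TUA6 (-2.05), GASA14 (-1.95), SIS (-1.89), the root epidermis gene WER (-1.86), TPPF (-1.72), and CSLA2 (-1.61). The call of GSTU22 within the MCE was lost without 24 HAS replicate 2 (adjusted p = 0.068) or 3 HAS replicate 1 (adjusted p = 0.069).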

How the results depend on the processing

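The count of 701 genes changed 3-fold stayed at 701 with only the 6 arrays, with the 12 MCE arrays, with a trended and robust prior, and among the 10830 genes above 5. These settings keep the group means that set the fold, so the count could move only through the adjusted p. A 3-fold change above the floor needs a group mean above 5, so that filter could remove none of the 701. The unchanged count is therefore no test of the folds. Leaving out 1 array gave 682 to 736 such genes (457 to 515 higher, 195 to 247 lower), 6566 to 7003 past the test (3517 to 3774 higher, 3049 to 3310 lower), and 290 to 351 different from the RAD (164 to 218 above it, 120 to 133 below it), with 351 without 24 HAS replicate 1. The methods' t-test after Benjamini-Hochberg adjustment passed 4468 genes (2393 higher, 2075 lower) and unadjusted 7670. Centring on the array median gave 8346 lower genes. A 2-fold rule called 2154 genes (1372 higher, 782 lower). The count different from the RAD was 323 with no floor and 231 with a floor of 5. The median of ribosome biogenesis turned to -0.085 under centring, and that of glucosinolate genes to 0.096 with only genes above 5. The cause was not tested. Deviations of same-numbered arrays at 24 and 3 HAS correlated at -0.0618, 0.0631 and 0.132. Those of differently numbered arrays correlated at -0.18 to 0.119. These values show no pairing by replicate number between 24 and 3 HAS. Pairing with the arrays at 7 and 12 HAS was not tested. With the replicate number as a block 701 genes changed 3-fold (477 higher, 224 lower), again from the same group means. With this block over all arrays 7670 genes passed the test (4055 higher, 3615 lower), and 296 differed from the RAD (173 above it). Over the 12 MCE arrays 8146 passed with the block (4247 higher, 3899 lower) and 7137 without it (3768 higher, 3369 lower). Whether same-numbered MCE arrays share a deviation over all times was not tested. Of 304 named genes past the test 271 stayed called in each of the 10 alternatives run gene by gene (only the 6 arrays, the replicate block over all arrays, quantile normalisation, centring and the 6 arrays left out in turn). Promoter motifs were not run. Counts of risen and fallen genes have no floor, so they include genes with means below 5, such as MYB11. With only the 10830 genes above 5 tested, 6614 passed (3574 higher, 3040 lower), of which 6274 also passed in the main fit. Values near 3 are at the bottom of the scale, so a call there is no evidence of a measurable change.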
